A study of Mus musculus with 6 samples.

Results

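The mitosis genes described here are 45 named genes whose proteins drive cells from the G2 phase through mitosis to the separation of daughter cells. They were chosen by name, from what their products do, but with earlier results of these data known. The shares called higher or lower below therefore describe these genes and are no independent test. All 45 were found among the 53726 features of the RNA-seq count table. RNA-seq covered whole Achilles tendon RNA of mice aged 4 weeks, with 1 library for each of 3 genotypes. The Control carried loxP-flanked Dicer alleles and no Cre (Dicer f/f), the ScxHt mouse carried the ScxCre knock-in with intact Dicer (ScxCre/+ Knock In:Dicer +/+), and the Dicer cKO mouse carried both (ScxCre/+ Knock In:Dicer f/f). Cre was made from the Scx locus, which is active in tendon and ligament cells, and cells of the tissue in which Scx was never active keep Dicer. The study proposes that recombination was of low efficiency and mosaic, so cells with Scx activity may keep Dicer too. In addition, 1 Scx allele was a knock-in in both the ScxHt and the Dicer cKO mouse but not in the Control. Dicer is the RNase that cuts microRNA precursors to their mature form. With 1 library per genotype there was no replicate error, mice could not be tested against each other and p-values are left out. Each ratio stands with its 95% Clopper-Pearson interval, which covers counting error only and not the variation between mice.

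In a dividing cell, CDK1 bound to a B-type cyclin starts mitosis, Aurora and Polo kinases build the spindle, and kinetochores tie chromosomes to spindle microtubules. The spindle checkpoint holds the anaphase-promoting complex until every kinetochore is attached. Cyclin B and securin are then degraded, sister chromatids part, and the central spindle and the RhoA pathway direct cytokinesis. Most of these genes are transcribed mainly in G2 and M, through CHR and CCAAT elements of their promoters, and are silent in resting cells, which is why their RNA is used as a readout of dividing cells. In RNA of a whole tissue, more dividing cells and more RNA per dividing cell cannot be told apart.

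Library totals were 14959399 to 16244232 counts. Dicer1, the targeted gene, had 1919 counts in Control, 2025 in ScxHt and 1621 in Dicer cKO, a Dicer cKO over Control ratio of 0.877 (0.821 to 0.938). This count covers the whole gene and all cells of the tissue, so it is a weak check of the deletion. All 10 tendon fibroblast markers had counts in every library, and together they took 13.6% of the counts in Control, 12.0% in ScxHt and 7.83% in Dicer cKO. Most of this sum was Col1a1 and Col1a2, and 7 of the 10 markers had a ScxHt over Control ratio above 1, against none for Dicer cKO over Control.

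None of the 45 mitosis genes was at 0 in any library. Together they held 6490 counts in Control, 11423 in ScxHt and 10640 in Dicer cKO, or 400.2, 725.6 and 712.4 CPM (counts scaled to a common library total). The median gene had 86 counts in Control, 134 in ScxHt and 138 in Dicer cKO. The genes of lowest count set the limit of precision, since 15 of the 45 had under 50 counts in the Control library, against 2 in ScxHt and 3 in Dicer cKO. In RPKM, a level per length of transcript that allows genes to be compared with each other, Mki67 was highest in each library, at 9.30, 17.5 and 18.3 in the Control, ScxHt and Dicer cKO. Mki67, the gene of the Ki-67 proliferation antigen, which coats mitotic chromosomes, alone made up 23.4% to 25.9% of the summed counts. Cdk1 was lowest in the Control, at an RPKM of 0.312, and had 1.49 in ScxHt and 0.867 in Dicer cKO.

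**Figure D1:**
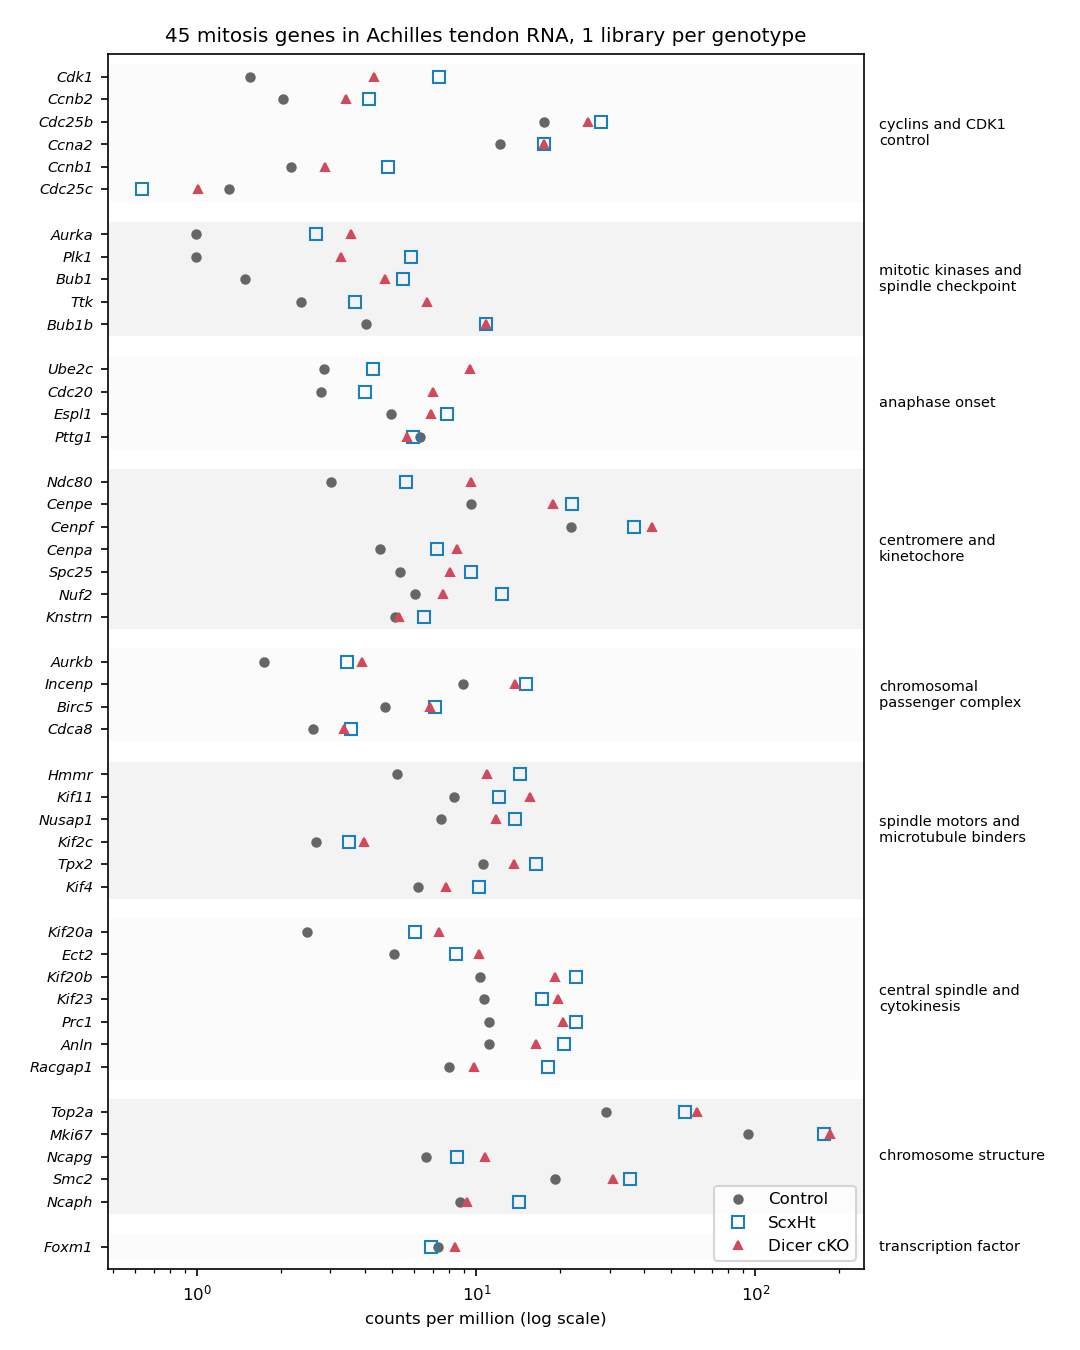
Levels in CPM (log axis) of each of the 45 mitosis genes in the Control (grey circles), ScxHt (open blue squares) and Dicer cKO (red triangles) library, 1 library per genotype, grouped by role. The Control point lies left of both others for nearly every gene, with Pttg1, Foxm1 and Cdc25c as exceptions.

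Ratios were taken from counts divided by the DESeq2 size factors of the 2 libraries compared, and a gene was called higher above a ratio of 1/0.60 rounded to 2 decimals, the upper limit, and lower below 0.60, as in the methods of the study. Over all 45 genes the Dicer cKO over Control ratio was above 1 for 42 and had a median of 1.60 (0.68 on the log2 scale), with 22 genes called higher and none called lower. Of the 36 genes with a mean normalized count above 50, 17 (47.2%) were called higher and 0 lower, beside 3.87% higher and 4.19% lower of the 13404 features of the table above the same minimum. With no minimum, the whole counting interval lay above 1 for 33 of the 45 genes and below 1 for 0. Of those features above the minimum these shares were 21.6% and 28.5%. The median log2 ratio of these features was -0.03.

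The ScxHt over Control ratio was above 1 for 42 of the 45 genes and had a median of 1.57 (0.65 on the log2 scale), with 22 genes called higher and 1, Cdc25c, called lower. Of the 38 genes above the minimum, 19 (50%) were called higher and 0 lower, beside 3.03% and 4.71% of 13462 features. With no minimum, intervals wholly above 1 were seen for 35 of the 45 genes and wholly below 1 for none. Of the features above the minimum these shares were 26.4% and 23.8%. This comparison and the previous one share the Control library, so their ratios are not independent of each other.

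Between the 2 libraries with the Cre allele the genes were spread about equality. The Dicer cKO over ScxHt ratio had a median of 0.984 (-0.02 on the log2 scale) and was above 1 for 21 of the 45 genes and below 1 for 24. Of the 43 genes above the minimum, 4 were called higher (9.30%) and 2 lower, beside 7.68% and 5.68% of 13455 features. With no minimum, intervals of the 45 genes lay wholly above 1 for 10 and wholly below 1 for 8, and held 1 for 27. Of the features above the minimum, 24.9% had intervals wholly above 1 and 30.6% wholly below 1. Both shares called were near those of all features.

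Summed over the 45 genes, the counts gave a ratio of 1.70 (1.65 to 1.76) for Dicer cKO over Control, 1.69 (1.64 to 1.74) for ScxHt over Control and 1.027 (0.9997 to 1.05) for Dicer cKO over ScxHt, the last of which was 0.982 when libraries were scaled by total counts. Without Mki67 these were 1.65 (1.59 to 1.71), 1.666 (1.61 to 1.73) and 1.005 (0.975 to 1.04), so the other 44 genes gave nearly the same values. The genes nearest the limit for a higher call were Prc1 (1.76) and Kif23 (1.76) inside it and Ccnb2 (1.60) and Ncapg (1.55) outside it for Dicer cKO over Control. For ScxHt over Control they were Spc25 (1.68) and Nusap1 (1.72) inside and Incenp (1.57) and Cenpf (1.56) outside, and for Dicer cKO over ScxHt they were Ndc80 (1.79) and Cdc20 (1.82) inside and Cdc25c (1.65) and Aurka (1.39) outside.

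**Figure D2:**
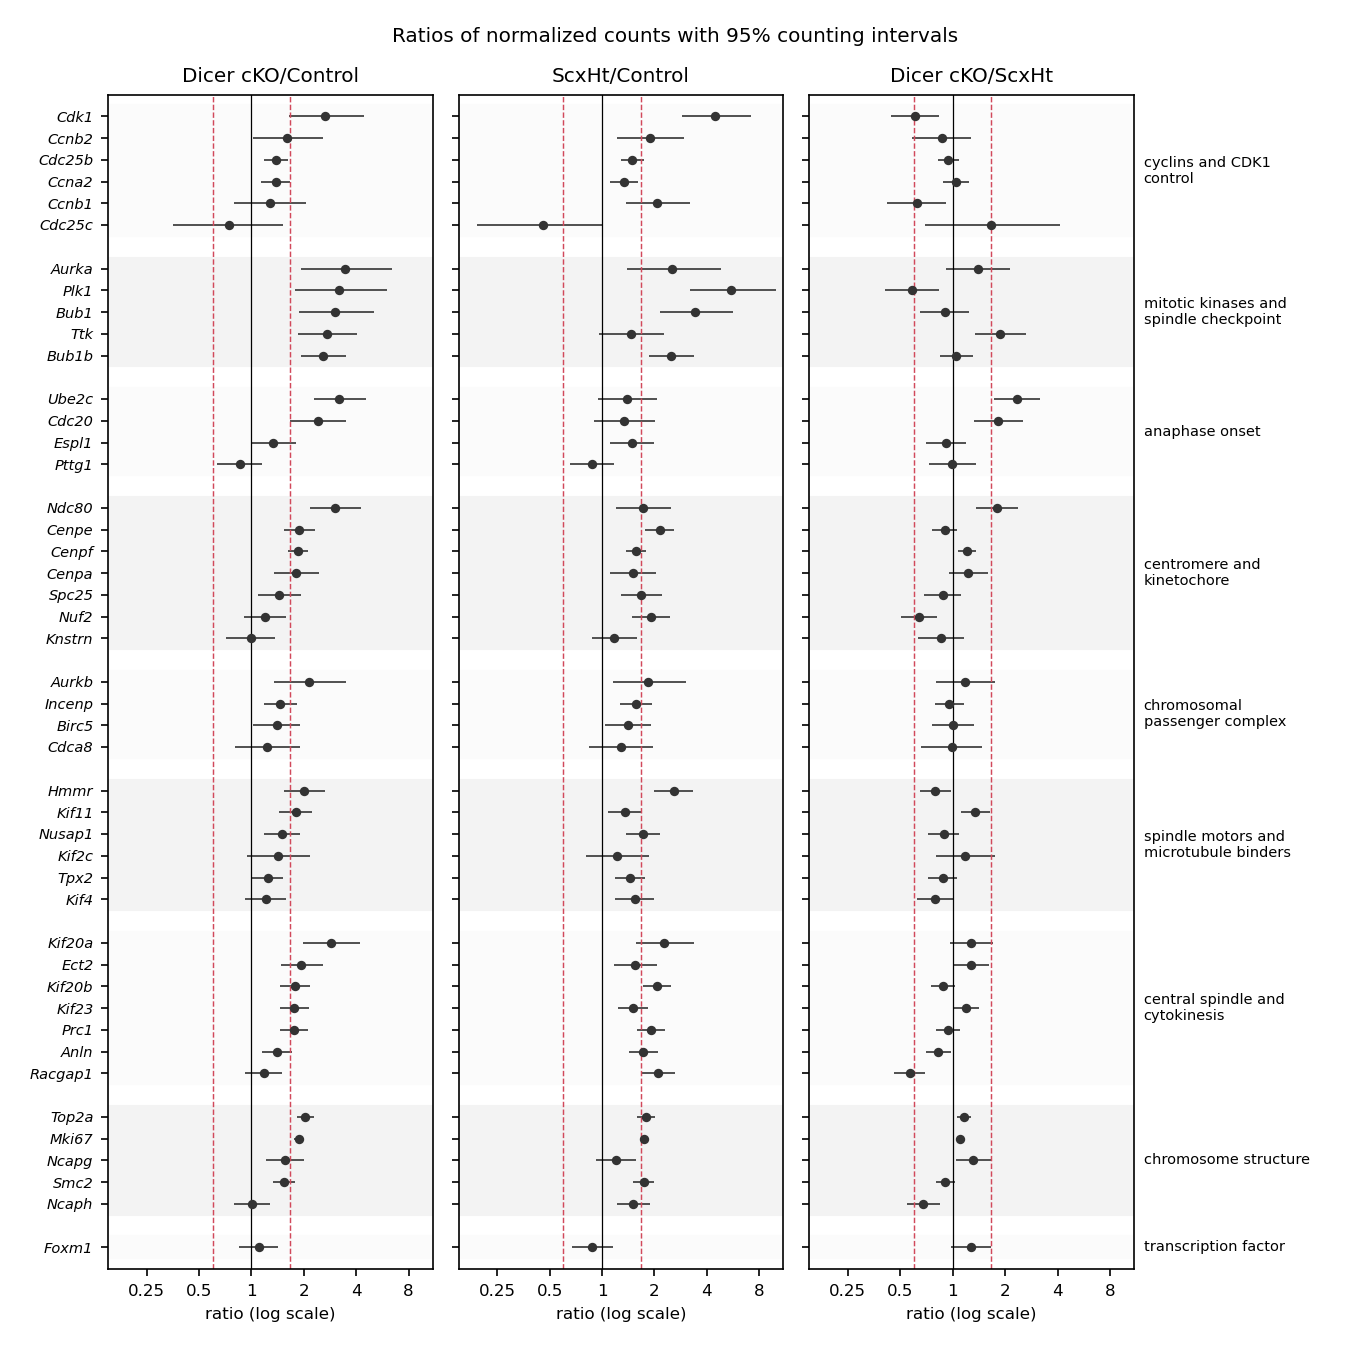
Ratio of normalized counts (points, log axis) with 95% counting intervals (bars) for each mitosis gene in Dicer cKO over Control, ScxHt over Control and Dicer cKO over ScxHt, each written with a slash above its panel. Dashed lines mark the limits of 0.60 and its inverse, and the solid line marks 1. Most points lie right of 1 in the first and second panels and on both sides of it in the third, where Ube2c (2.34) is highest and Racgap1 (0.566) lowest.

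The promoters of these genes share elements that the choice of genes did not use. RefSeq windows on GRCm38.p6, from 250 bases before to 50 bases after the gene start, were at hand for 38 of the 45 genes, as 40 windows, since Ect2 and Prc1 each had a pair of overlapping windows. Both strands were searched for the CHR (TTTGAA or TTCGAA), the CCAAT box (CCAAT) and an E2F site (TTTGGCGC, TTTCGCGC, TTTCCCGC or TTTGCCGC). The CHR is bound by the MuvB complex, which represses in quiescent cells as DREAM and activates with B-Myb and FOXM1, the CCAAT box is bound by NF-Y, and E2F sites are typical of genes of the G1/S transition.

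A CHR stood in 80.0% of the windows of the mitosis genes (32 of 40), beside 19.2% of all 32851 windows and 17.6% of those of protein-coding genes. Within 50 bases of the start, the shares with a CHR were 75% and 5.31%. A CCAAT box stood in 75% of the windows, beside 37.4% of all windows, and 45% held at least 2, beside 11.7%. CHR and CCAAT box together stood in 70.0%, beside 7.52%, and an E2F site in 5.0%, beside 2.26%. Windows were also at hand for genes of other cell cycle lists, set out further on. For 49 of 65 other mitosis genes, 64.3% of 56 windows held a CHR, 46.4% a CHR within 50 bases of the start and 67.9% a CCAAT box. E2F, DREAM and MuvB factors had a CHR in 33.3% of 18 windows. For 41 of 53 S-phase and DNA replication genes, a CHR stood in 18.4%, a CHR within 50 bases of the start in 6.12% and an E2F site in 36.7% of 49 windows. A match is a run of letters and does not show that a factor was bound in tendon. By GENCODE gene positions, the windows of Cdca8, Kif2c, Kif4 and Pttg1 lie wholly inside the gene and do not cover its annotated start.

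Windows of 6 genes are printed for the range they span, 5′ to 3′ on the strand of the gene with the motifs in capitals. Plk1 and Racgap1 had the lowest Dicer cKO over ScxHt ratios, Ube2c and Ttk the highest, Top2a had 4 CHR matches, and Pttg1 held none of the 3 motifs. They lie at chr7:122159185-122159484 (plus strand), chr15:99651607-99651906 (minus strand), chr2:164769679-164769978 (plus strand), chr9:83834439-83834738 (plus strand), chr11:99024140-99024439 (minus strand) and chr11:43425932-43426231 (minus strand). The Pttg1 window lies wholly inside the gene, whose start in GENCODE is at 43426251, so it does not cover the promoter at that start.
Plk1: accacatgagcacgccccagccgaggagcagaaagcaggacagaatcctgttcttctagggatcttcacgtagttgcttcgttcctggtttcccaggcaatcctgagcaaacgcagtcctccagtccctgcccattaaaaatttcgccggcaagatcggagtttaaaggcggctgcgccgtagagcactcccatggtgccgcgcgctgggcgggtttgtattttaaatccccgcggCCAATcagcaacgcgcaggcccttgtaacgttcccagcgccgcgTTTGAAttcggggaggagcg
Racgap1: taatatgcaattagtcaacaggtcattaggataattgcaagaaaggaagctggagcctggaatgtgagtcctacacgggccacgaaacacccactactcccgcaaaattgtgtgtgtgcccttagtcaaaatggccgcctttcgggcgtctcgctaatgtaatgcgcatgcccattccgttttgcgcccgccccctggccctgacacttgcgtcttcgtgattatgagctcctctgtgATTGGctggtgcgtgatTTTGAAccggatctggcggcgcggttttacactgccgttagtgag
Ube2c: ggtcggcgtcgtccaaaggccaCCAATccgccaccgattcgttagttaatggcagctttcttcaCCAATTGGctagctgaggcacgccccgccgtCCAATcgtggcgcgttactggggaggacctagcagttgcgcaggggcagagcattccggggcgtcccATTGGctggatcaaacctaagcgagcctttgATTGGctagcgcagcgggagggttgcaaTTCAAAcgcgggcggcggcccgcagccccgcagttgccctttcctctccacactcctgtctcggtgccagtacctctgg
Ttk: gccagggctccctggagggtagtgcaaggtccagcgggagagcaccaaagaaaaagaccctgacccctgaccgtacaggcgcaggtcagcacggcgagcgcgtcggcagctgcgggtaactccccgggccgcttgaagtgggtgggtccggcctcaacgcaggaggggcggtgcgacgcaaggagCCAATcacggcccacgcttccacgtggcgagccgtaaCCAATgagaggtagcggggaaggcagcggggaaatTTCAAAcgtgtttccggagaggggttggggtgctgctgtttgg
Top2a: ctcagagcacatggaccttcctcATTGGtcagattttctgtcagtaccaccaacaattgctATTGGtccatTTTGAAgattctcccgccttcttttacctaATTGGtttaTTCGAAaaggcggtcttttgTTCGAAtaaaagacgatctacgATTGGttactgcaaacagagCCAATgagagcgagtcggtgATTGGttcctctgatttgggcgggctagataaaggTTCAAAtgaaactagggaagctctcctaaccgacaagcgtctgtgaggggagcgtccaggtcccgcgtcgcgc
Pttg1: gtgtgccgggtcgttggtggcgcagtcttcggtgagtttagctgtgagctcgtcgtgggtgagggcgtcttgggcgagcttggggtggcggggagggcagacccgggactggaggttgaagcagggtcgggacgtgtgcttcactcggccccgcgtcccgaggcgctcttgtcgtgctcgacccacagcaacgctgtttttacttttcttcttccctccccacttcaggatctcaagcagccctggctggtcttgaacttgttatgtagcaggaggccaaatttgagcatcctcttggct
In the windows of Plk1 and Racgap1 a single CCAAT box stood upstream of a single CHR that began 31 and 6 bases after the start. Ube2c had 6 CCAAT matches, a pair of which overlapped on opposite strands, and its CHR lay at -29 on the minus strand of the window. Ttk had 2 CCAAT boxes and a CHR at 8. Top2a had 4 CHR and 6 CCAAT matches. The genes with the highest and the lowest Dicer cKO over ScxHt ratio thus both carried CHR and CCAAT matches.

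**Figure D3:**
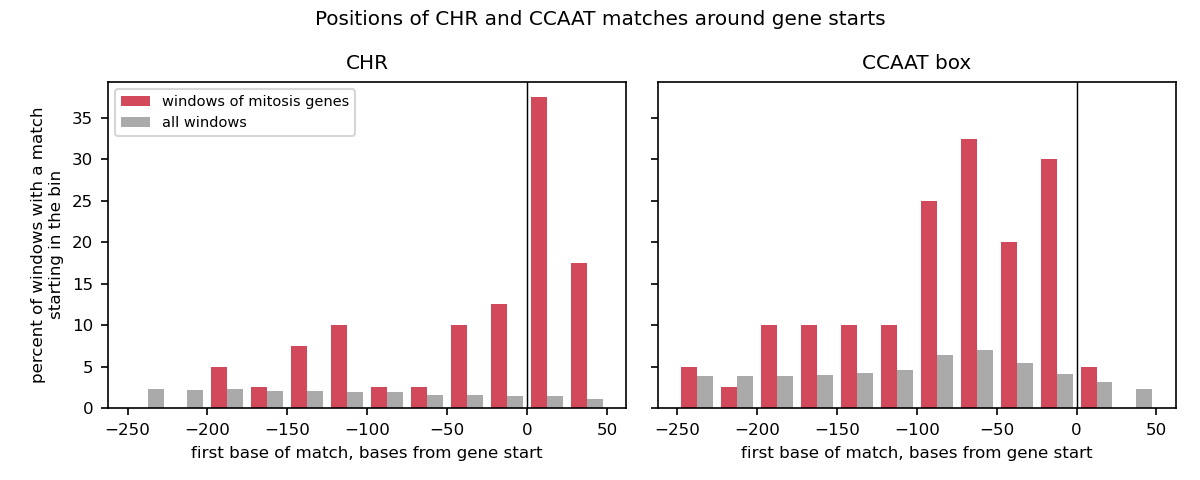
Percent of promoter windows with a CHR (left) or a CCAAT box (right) that begins in each bin of 25 bases, against the distance from the gene start in bases, for the 40 windows of the mitosis genes (red) and all 32851 windows (grey). CHR matches of the mitosis genes were most frequent in the first 25 bases after the start, in 37.5% of windows beside 1.43%, and CCAAT matches between 100 bases before it and the start.

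The 30 genes with a CHR had a median log2 ratio of 0.85 for Dicer cKO over Control, 0.77 for ScxHt over Control and 0.02 for Dicer cKO over ScxHt. The 8 genes with a window but no match to TTTGAA or TTCGAA were Birc5, Ccnb1, Cenpe, Knstrn, Ncaph, Nuf2, Nusap1 and Pttg1. Their median log2 ratios were 0.31, 0.69 and -0.20. No other sequence was searched as a CHR, so these genes are not shown to lack the element. With no minimum count, 19 of the 30 and 1 of the 8 were called higher for Dicer cKO over Control. For ScxHt over Control these were 16 of the 30 and 4 of the 8. Of all features above the minimum, 3.87% and 3.03% were called higher in these comparisons. The 8 genes are few, and the window of Pttg1 does not cover its annotated start. These splits were made with the ratios known and were not tested.

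By role, the mitotic kinases and the spindle checkpoint had the highest summed ratios, 2.83 (2.35 to 3.41) for Dicer cKO over Control and 2.70 (2.25 to 3.25) for ScxHt over Control. Plk1, the Polo kinase of mitotic entry and spindle assembly (chromosome 7, 122159439 to 122169873, plus strand, GRCm38), had 16 counts in Control, 92 in ScxHt and 49 in Dicer cKO. Its ScxHt over Control ratio of 5.51 (3.22 to 10.04) was the highest of the 45 genes, and its Dicer cKO over Control ratio was 3.18 (1.78 to 5.99). The Dicer cKO library thus lay between the other libraries, with a Dicer cKO over ScxHt ratio of 0.587 (0.406 to 0.839).

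Aurka, the Aurora kinase of the spindle poles (chromosome 2, 172356190 to 172370535, minus strand), had 16, 42 and 53 counts in Control, ScxHt and Dicer cKO, with ratios of 3.44 (1.94 to 6.45) for Dicer cKO over Control, the highest of the 45, and 2.51 (1.38 to 4.79) for ScxHt over Control. Bub1, a checkpoint kinase at kinetochores, had 24, 86 and 70 counts and ratios of 3.03 (1.88 to 5.04) and 3.43 (2.16 to 5.64). Bub1b, which encodes the checkpoint protein BubR1, had 65, 170 and 162 counts and ratios of 2.59 (1.93 to 3.51) and 2.50 (1.87 to 3.39). For these 3 genes the ScxHt and Dicer cKO libraries were close together, with Dicer cKO over ScxHt intervals that held 1. Ttk, which encodes the checkpoint kinase Mps1 (chromosome 9, 83834689 to 83872389, plus strand), had 38, 58 and 99 counts and was instead highest in Dicer cKO. Ratios were 2.71 (1.84 to 4.04) for Dicer cKO over Control, 1.46 (0.955 to 2.26) for ScxHt over Control and 1.88 (1.35 to 2.65) for Dicer cKO over ScxHt.

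Among the roles, the genes of anaphase onset had the highest summed Dicer cKO over ScxHt ratio. Their sums were 1.65 (1.41 to 1.92) for Dicer cKO over Control, 1.22 (1.04 to 1.43) for ScxHt over Control and 1.38 (1.19 to 1.59) for Dicer cKO over ScxHt. Of the 4 genes, Ube2c and Cdc20 had Dicer cKO over ScxHt intervals above 1, while those of Espl1 and Pttg1 held 1. Ube2c, the ubiquitin-conjugating enzyme of the anaphase-promoting complex (chromosome 2, 164769898 to 164778822, plus strand), had 46, 67 and 142 counts in the Control, ScxHt and Dicer cKO libraries. Its Dicer cKO over ScxHt ratio of 2.34 (1.74 to 3.17) was the highest of the 45 genes, beside 3.21 (2.28 to 4.57) for Dicer cKO over Control and 1.40 (0.944 to 2.08) for ScxHt over Control. Of the 2600 exon bases of Ube2c, 592 overlap exons of Tnnc2, the fast muscle troponin C gene on the opposite strand. Tnnc2 had 1807, 1704 and 3677 counts, and the sources used here do not say whether counting used the strand, so its part in the Ube2c count was not tested.

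Cdc20, the activator of the anaphase-promoting complex at the metaphase to anaphase transition (chromosome 4, 118432901 to 118437352, minus strand), had 45, 63 and 104 counts and ratios of 2.40 (1.68 to 3.48) for Dicer cKO over Control and 1.82 (1.32 to 2.53) for Dicer cKO over ScxHt. It shares 53 of 1868 exon bases with Elovl1 on the opposite strand, which had 213, 344 and 179 counts, and its part in the Cdc20 count was not tested. Espl1, which encodes separase, the protease that cuts cohesin, had 80, 124 and 103 counts and a ScxHt over Control ratio of 1.49 (1.11 to 1.99). Pttg1, which encodes securin, the inhibitor of separase, had 102, 93 and 84 counts and ratios of 0.855 (0.633 to 1.15) for Dicer cKO over Control and 0.873 (0.652 to 1.17) for ScxHt over Control. All 3 of its intervals held 1.

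Among the cyclins and regulators of CDK1, summed ratios were 1.42 (1.27 to 1.58) for Dicer cKO over Control and 1.58 (1.43 to 1.75) for ScxHt over Control. Cdk1, the kinase of mitotic entry (chromosome 10, 69335146 to 69352938, minus strand), had 25 counts in Control, 116 in ScxHt and 64 in Dicer cKO. Its ratios were 2.66 (1.65 to 4.41) for Dicer cKO over Control, 4.44 (2.87 to 7.15) for ScxHt over Control and 0.608 (0.441 to 0.832) for Dicer cKO over ScxHt. Ccnb1, which encodes cyclin B1, the partner of CDK1, had 35, 76 and 43 counts in the same order of libraries, and its Dicer cKO over ScxHt ratio was 0.624 (0.419 to 0.918). Both were thus highest in the ScxHt library, beyond counting error.

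Ccnb2, which encodes cyclin B2, had 33, 65 and 51 counts and ratios of 1.60 (1.016 to 2.57) for Dicer cKO over Control and 1.89 (1.22 to 2.96) for ScxHt over Control. Ccna2, which encodes cyclin A2, a cyclin of both S phase and mitosis, had 197, 274 and 261 counts and smaller ratios of 1.38 (1.14 to 1.66) and 1.33 (1.105 to 1.61). Cdc25b, the phosphatase that first activates CDK1, had 283, 440 and 376 counts and ratios of 1.38 (1.18 to 1.61) and 1.49 (1.28 to 1.74). Cdc25c, a related phosphatase, differed from the rest, with 21, 10 and 15 counts and a ScxHt over Control ratio of 0.456 (0.192 to 1.01). At these counts no difference was detectable for Cdc25c, since all 3 of its intervals held 1.

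At the centromere and kinetochore, the summed ratios were 1.73 (1.59 to 1.88) for Dicer cKO over Control, 1.68 (1.54 to 1.82) for ScxHt over Control and 1.05 (0.976 to 1.13) for Dicer cKO over ScxHt. Ndc80 and Nuf2 encode partners in 1 complex, the NDC80 complex that grips microtubules, and Spc25 encodes another subunit of it. Ndc80 had 49, 88 and 143 counts in the Control, ScxHt and Dicer cKO libraries and a Dicer cKO over ScxHt ratio of 1.79 (1.36 to 2.36). Nuf2 had 98, 195 and 113 counts and a Dicer cKO over ScxHt ratio of 0.639 (0.502 to 0.809). Spc25 had 86, 151 and 120 counts and a ratio of 0.876 (0.683 to 1.12). Counts of these partners were thus ordered differently across the libraries with Cre, Ndc80 being higher and Nuf2 lower in the Dicer cKO library.

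Cenpe, the kinetochore motor that moves chromosomes to the metaphase plate, had 155, 346 and 282 counts and ratios of 1.89 (1.55 to 2.31) for Dicer cKO over Control and 2.14 (1.76 to 2.60) for ScxHt over Control. Cenpf, a large kinetochore protein of G2 and M, had 355, 578 and 634 counts and ratios of 1.85 (1.63 to 2.12) and 1.56 (1.36 to 1.78). Cenpa, the centromeric histone H3 variant, had 73, 114 and 127 counts and ratios of 1.81 (1.34 to 2.44) and 1.496 (1.105 to 2.04). These 3 genes were lowest in the Control beyond counting error. Knstrn, which encodes a kinetochore and spindle adaptor, had 83, 102 and 79 counts and intervals that held 1 in all 3 comparisons.

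The chromosomal passenger complex corrects wrong attachments and later marks the central spindle, and its 4 genes gave summed ratios of 1.48 (1.27 to 1.73), 1.51 (1.30 to 1.76) and 0.996 (0.870 to 1.14) for Dicer cKO over Control, ScxHt over Control and Dicer cKO over ScxHt. Aurkb, its kinase, had 28, 54 and 58 counts in the Control, ScxHt and Dicer cKO libraries and a Dicer cKO over Control ratio of 2.15 (1.35 to 3.51). Incenp, its scaffold, had 145, 237 and 205 counts and a ratio of 1.47 (1.18 to 1.83), and Birc5, which encodes survivin, had 76, 112 and 102 counts and a ratio of 1.39 (1.025 to 1.90). Cdca8, which encodes borealin, had 42, 56 and 50 counts and intervals that held 1 in all 3 comparisons. No gene of this complex differed between the Dicer cKO and ScxHt libraries beyond counting error, with ratios from 0.953 to 1.18.

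Spindle motors and microtubule binders gave summed ratios of 1.51 (1.36 to 1.669) for Dicer cKO over Control, 1.62 (1.47 to 1.79) for ScxHt over Control and 0.947 (0.867 to 1.033) for Dicer cKO over ScxHt. Hmmr, a spindle protein first described as a receptor of hyaluronan, had 84, 226 and 163 counts in the Control, ScxHt and Dicer cKO libraries. Its ratios were 2.02 (1.54 to 2.65) for Dicer cKO over Control and 2.58 (1.998 to 3.35) for ScxHt over Control. Kif11, the motor that pushes spindle poles apart, had 135, 190 and 233 counts, a Dicer cKO over Control ratio of 1.79 (1.44 to 2.23) and a Dicer cKO over ScxHt ratio of 1.35 (1.11 to 1.65). Kif11 was thus highest in the Dicer cKO library and Hmmr in the ScxHt library, both beyond counting error.

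Nusap1, a microtubule bundling protein, had 121, 217 and 175 counts and ratios of 1.502 (1.18 to 1.91) for Dicer cKO over Control and 1.72 (1.37 to 2.16) for ScxHt over Control. Tpx2, the activator of Aurora A on the spindle, had 171, 257 and 204 counts and ratios of 1.24 (1.01 to 1.53) and 1.44 (1.18 to 1.76). Kif2c, a motor that shortens microtubules, had 43, 55 and 59 counts, and no difference was detectable at this depth in any comparison. Kif4, a chromokinesin that acts with PRC1, had 100, 161 and 116 counts, a ScxHt over Control ratio of 1.54 (1.194 to 2.0) and a Dicer cKO over Control ratio of 1.21 (0.914 to 1.59).

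Genes of the central spindle and cytokinesis had summed ratios of 1.68 (1.55 to 1.82) for Dicer cKO over Control, 1.84 (1.70 to 1.99) for ScxHt over Control and 0.928 (0.867 to 0.994) for Dicer cKO over ScxHt. Racgap1, a subunit of centralspindlin (chromosome 15, 99620496 to 99651656, minus strand), had 129 counts in Control, 284 in ScxHt and 146 in Dicer cKO. Its Dicer cKO over ScxHt ratio of 0.566 (0.461 to 0.694) was the lowest of the 45 genes, its ScxHt over Control ratio was 2.11 (1.71 to 2.62) and its Dicer cKO over Control ratio was 1.18 (0.921 to 1.501). Kif23, the motor subunit of the same centralspindlin complex, had 172, 270 and 292 counts and a Dicer cKO over ScxHt ratio of 1.19 (1.01 to 1.41). Here too the partners of 1 complex were ordered differently between the libraries with Cre.

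Prc1, which cross-links the microtubules of the central spindle, had 180, 357 and 305 counts and ratios of 1.76 (1.46 to 2.13) for Dicer cKO over Control and 1.90 (1.58 to 2.28) for ScxHt over Control. Kif20b, a motor of late cytokinesis, had 167, 359 and 286 counts and ratios of 1.78 (1.46 to 2.17) and 2.06 (1.71 to 2.49). Ect2, the exchange factor that activates RhoA at the cell equator, had 82, 133 and 153 counts and ratios of 1.94 (1.47 to 2.57) and 1.55 (1.17 to 2.07). Anln, the anillin scaffold of the contractile ring, had a smaller Dicer cKO over Control ratio of 1.41 (1.16 to 1.72), from 180, 325 and 244 counts. Kif20a, the motor that brings the passenger complex to the central spindle, had 40, 95 and 110 counts and ratios of 2.86 (1.97 to 4.21) and 2.28 (1.56 to 3.38). Exons of Cdc23 overlap 1271 of the 4338 exon bases of Kif20a on the opposite strand, and Cdc23 had 931, 1027 and 867 counts.

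Chromosome structure genes gave summed ratios of 1.81 (1.72 to 1.90) for Dicer cKO over Control, 1.72 (1.64 to 1.80) for ScxHt over Control and 1.07 (1.026 to 1.11) for Dicer cKO over ScxHt. Mki67 had 1520, 2776 and 2756 counts in the Control, ScxHt and Dicer cKO libraries and a Dicer cKO over ScxHt ratio of 1.09 (1.04 to 1.15). Top2a, the topoisomerase that untangles sister chromatids, had 473, 882 and 926 counts and a Dicer cKO over ScxHt ratio of 1.16 (1.05 to 1.27). Differences of this size were larger than counting error for these 2 abundant genes, but the variation between mice was not measured.

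Smc2, Ncapg and Ncaph encode subunits of condensin, which compacts chromosomes, and they differed among themselves. Smc2, shared by both condensins, had 310, 561 and 460 counts and ratios of 1.54 (1.33 to 1.79) for Dicer cKO over Control and 1.73 (1.51 to 1.998) for ScxHt over Control. Ncapg had 107, 134 and 160 counts and a Dicer cKO over ScxHt ratio of 1.32 (1.04 to 1.668). It shares 944 of 7066 exon bases with Lcorl on the opposite strand. Lcorl had 781, 865 and 779 counts, and its part in the Ncapg count was not tested. Ncaph had 142, 224 and 138 counts, a Dicer cKO over ScxHt ratio of 0.679 (0.545 to 0.843) and a Dicer cKO over Control ratio of 1.01 (0.792 to 1.29). Ncaph was thus highest in the ScxHt library and nearly equal in the other libraries.

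Foxm1, the transcription factor that activates many G2 and M genes, had 118, 108 and 125 counts in the Control, ScxHt and Dicer cKO libraries. Its ratios were 1.1 (0.848 to 1.43) for Dicer cKO over Control and 0.877 (0.669 to 1.15) for ScxHt over Control. The intervals of this transcript held 1 in all 3 comparisons.

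**Figure D4:**
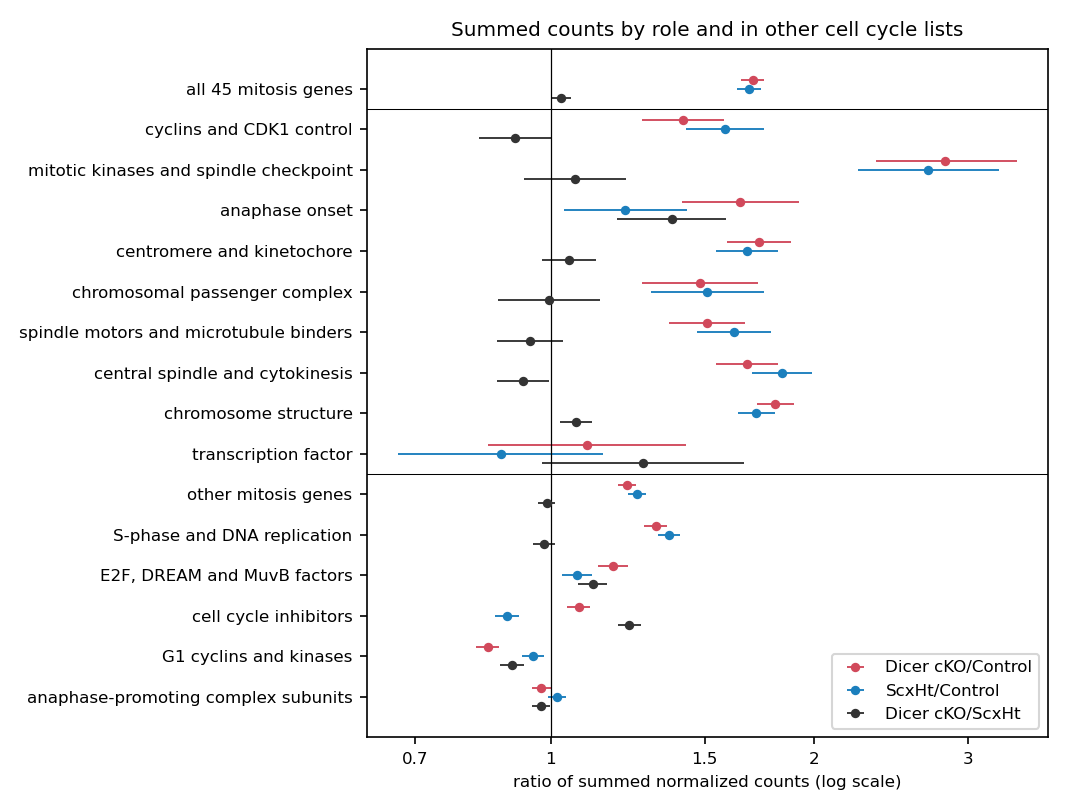
Ratio of summed normalized counts (points, log axis) with 95% counting intervals (bars) for all 45 mitosis genes, for each role among them and for 6 other cell cycle lists, in Dicer cKO over Control (red), ScxHt over Control (blue) and Dicer cKO over ScxHt (black). Mitotic kinases and the spindle checkpoint are highest against Control, at 2.83 and 2.70, and subunits of the anaphase-promoting complex are near 1.

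The other genes of the cell cycle were taken from 6 lists. Of 65 other mitosis genes, 30 were called higher and 2 lower for Dicer cKO over Control, 28 and 1 for ScxHt over Control, and 11 and 4 for Dicer cKO over ScxHt, with median log2 ratios of 0.67, 0.67 and 0.08. Above the minimum these were 15 and 1 of 38, 11 and 0 of 38, and 4 and 1 of 42, or 39.5%, 28.9% and 9.52% higher, beside 3.87%, 3.03% and 7.68% of all features. Called lower were 4.19%, 4.71% and 5.68% of all features in the same order. The share called higher for Dicer cKO over ScxHt was near that of all features. For Dicer cKO over Control the whole interval lay above the upper limit for 14 of them, among which were Cenph, Cenpw, Zwilch, Sgol2a, Oip5, Cep55, Cit, Ckap2, Ckap2l, Cdkn3, Trip13, Shcbp1 and Gas2l3. Gas2l3, a cytoskeletal linker active in cytokinesis, had 131, 210 and 377 counts in the Control, ScxHt and Dicer cKO libraries and a Dicer cKO over ScxHt ratio of 1.98 (1.667 to 2.35). Cit, the citron kinase of abscission, had 125, 145 and 265 counts and a ratio of 2.01 (1.64 to 2.48).

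Wee1, the kinase that holds CDK1 inactive before mitosis, went the other way. It had 981, 1015 and 520 counts, with ratios of 0.550 (0.494 to 0.613) for Dicer cKO over Control and 0.565 (0.507 to 0.628) for Dicer cKO over ScxHt. Cks1b, which encodes a small CDK-binding protein, had 21, 54 and 16 counts and a Dicer cKO over ScxHt ratio of 0.327 (0.174 to 0.579).

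Of 53 genes of S phase and DNA replication, 14 were called higher and 2 lower for Dicer cKO over Control, 15 and 0 for ScxHt over Control and 1 and 4 for Dicer cKO over ScxHt, with median log2 ratios of 0.52, 0.49 and 0.00. Above the minimum these were 10 and 0 of 45, 11 and 0 of 44, and 0 and 2 of 46. Higher calls were thus 22.2%, 25% and 0%, beside the same shares of all features, of which 4.19%, 4.71% and 5.68% were called lower. Clspn, a checkpoint adaptor at replication forks, had 66, 219 and 194 counts and the highest ratios above the minimum, 3.05 (2.30 to 4.10) and 3.18 (2.40 to 4.25). Cdc45, Gins2, Orc1, Rfc4, Tk1 and Dtl also had whole intervals above the upper limit for Dicer cKO over Control, and Gmnn, with 14, 11 and 1 counts, had one below the lower limit. Prim1, the small subunit of primase, had 57, 122 and 45 counts and a Dicer cKO over ScxHt ratio of 0.407 (0.282 to 0.577). Pole, the leading-strand polymerase, had 175, 220 and 319 counts and the highest ratio above the minimum in that comparison, 1.60 (1.34 to 1.91). Dut, an enzyme of nucleotide supply, had the lowest ratio above the minimum for Dicer cKO over Control, at 0.635.

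The 13 subunits of the anaphase-promoting complex had median log2 ratios of -0.05, 0.05 and -0.05 for Dicer cKO over Control, ScxHt over Control and Dicer cKO over ScxHt, with none called, from Anapc13 (0.685 for Dicer cKO over Control) to Anapc10 (1.56 for ScxHt over Control). Ube2c and Cdc20, which act with this complex, are not among these 13. The 11 G1 cyclins and kinases had medians of 0.04, -0.08 and 0.23. For Dicer cKO over Control only Ccne1 was called higher, with 14, 19 and 39 counts and under the minimum, and for ScxHt over Control only Ccne2. Above the minimum, 0 of 10 and 1 of 10 were called higher, beside 3.87% and 3.03% of all features. In both comparisons 1 of the 10, Myc, was called lower, beside 4.19% and 4.71%. Myc, a growth-promoting transcription factor, had 83, 41 and 46 counts and the lowest ratios above the minimum, 0.576 (0.392 to 0.835) and 0.473 (0.317 to 0.696). Ccne2, which encodes cyclin E2, had 101, 185 and 147 counts and a ScxHt over Control ratio of 1.75 (1.37 to 2.26). Its Dicer cKO over Control ratio of 1.51 was under the upper limit.

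The 17 E2F, DREAM and MuvB factors had medians of 0.28, 0.20 and 0.05, with Lin52, a MuvB subunit, lowest against Control at 0.651 and 0.676. Mybl2, the B-Myb partner of MuvB, had 52, 44 and 87 counts and a Dicer cKO over ScxHt ratio of 2.18 (1.5 to 3.21), which was the highest of the list above the minimum. E2f5, a repressive E2F, was the lowest above the minimum in that comparison, with 104, 135 and 68 counts and a ratio of 0.555 (0.408 to 0.748). Mybl1, the A-Myb gene, had 83, 161 and 96 counts and a ScxHt over Control ratio of 1.86 (1.42 to 2.45). E2f7, a repressor of the E2F family, had 75, 133 and 147 counts and a Dicer cKO over Control ratio of 2.04 (1.53 to 2.72).

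The 14 cell cycle inhibitors had medians of 0.33, 0.17 and 0.07. Among them Btg2, an antiproliferative gene of the immediate early response, had 1077, 366 and 416 counts, with ratios of 0.401 (0.357 to 0.450) for Dicer cKO over Control and 0.326 (0.288 to 0.367) for ScxHt over Control. Ccng1, a cyclin G gene that p53 induces, had 2921, 2366 and 3729 counts and a Dicer cKO over ScxHt ratio of 1.74 (1.65 to 1.83), and Cdkn1a, which encodes p21, had 226, 268 and 155 counts and the lowest ratio above the minimum, 0.637 (0.520 to 0.780).

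**Figure D5:**
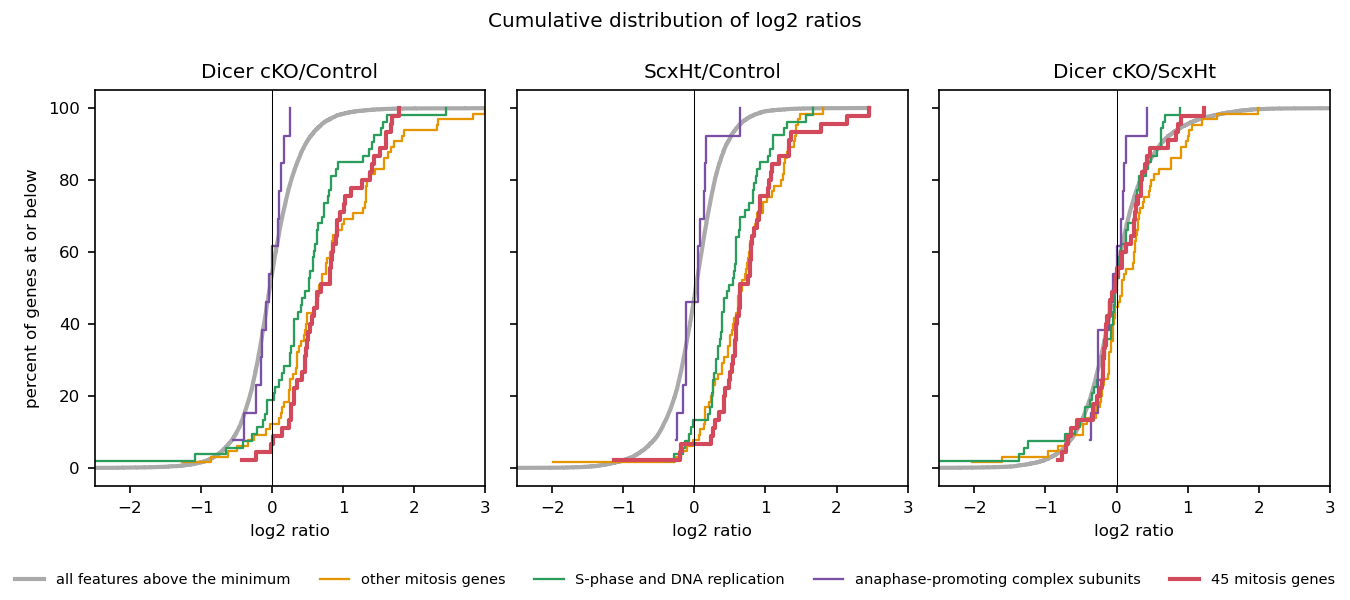
Cumulative percent of genes at or below each log2 ratio in the 3 comparisons, for all 45 mitosis genes (red), the other mitosis genes (orange), S-phase and DNA replication genes (green) and subunits of the anaphase-promoting complex (purple), all without a minimum count, beside all features above the minimum of 50 (grey). Against Control the curves of the red, orange and green lists lie right of the grey curve, with medians of 0.68, 0.67 and 0.52 for Dicer cKO over Control, and in Dicer cKO over ScxHt they run close to it.

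Markers of other cells in the tissue differed between the libraries as well. Skeletal muscle markers, all 12 with counts, took 5.49% of the counts in Control, 3.10% in ScxHt and 9.53% in Dicer cKO. Most of this sum was Ttn, with 688745, 329060 and 1062032 counts. In ScxHt over Control 4 of the 12 had ratios above 1, of which Myh4 (4.70), Pvalb (3.22) and Actn3 (1.79) were called higher. Another 4, Ttn (0.458), Acta1 (0.573), Myh1 (0.480) and Myh2 (0.419), were called lower. Of all features above the minimum, 3.03% were called higher and 4.71% lower. In Dicer cKO over Control all 12 had ratios above 1 and 9 were called higher, beside 3.87% of all features. Macrophage markers, all 9 with counts, had 248.0, 466.9 and 195.3 CPM, and Schwann cell markers, all 10 with counts, had 240.6, 310.6 and 779.5. Most of the Schwann cell sum in Control and ScxHt was Pmp22, with 3096, 4103 and 4001 counts in Control, ScxHt and Dicer cKO. Endothelial markers, all 8 with counts, had 653.8, 476.1 and 754.9 CPM, chondrocyte markers, all 8 with counts, 956.4, 1010.0 and 722.9, and adipocyte markers, all 6 with counts, 778.1, 927.0 and 828.1.

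Markers of blood cell precursors and of lymphocytes were at few counts. The 9 markers of neutrophils and granulocyte precursors had 1, 17 and 0 counts in the Control, ScxHt and Dicer cKO libraries, with Mpo and Elane at 0 in all of them, and the 11 markers of B and T lymphocytes had 25, 39 and 23. The 11 erythroid markers had 323.3, 283.7 and 643.0 CPM, mostly from globins, Tfrc and Alas2, with Rhag at 0 and Klf1 at 2, 1 and 0. The 5 of 6 satellite cell and myoblast markers found in the table had 118, 70 and 201 counts, with Myf5 at 0 in the ScxHt library. The 6 osteoblast markers had 144.2, 206.7 and 51.9 CPM, with Bglap at 0. Most of this sum was Ibsp, with 2141, 3033 and 583 counts, while Runx2 had 101, 112 and 106 and Alpl 95, 100 and 79. The 6 keratinocyte markers had 101, 139 and 180 counts, nearly all from Trp63 (100, 127 and 178), with Krt5 and Lor at 0. The part of these cells in the ratios of the mitosis genes was not tested.

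Exons of 15 of the 45 genes overlap another annotated gene. Besides those given above, Prc1 shares 911 of 8225 exon bases with Rccd1 and Kif4 832 of 5514 with Pdzd11, both on the opposite strand. Their part in these counts was not tested. Among the 30 genes without an overlap, 16 were called higher for Dicer cKO over Control and 17 for ScxHt over Control with no minimum count. Their median log2 ratios were 0.82 and 0.79 and their summed ratios 1.72 (1.66 to 1.78) and 1.74 (1.674 to 1.80). Above the minimum, 12 of 24 and 14 of 25 were called higher, beside 3.87% and 3.03% of all features. For Dicer cKO over ScxHt these 30 genes had a summed ratio of 1.01 (0.977 to 1.04). Of the 29 above the minimum, Ttk and Ndc80 were called higher and Racgap1 lower, beside 7.68% and 5.68% of all features.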

How the data were processed

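RNA-seq was analysed from the deposited counts per gene, which the authors made with TopHat, Bowtie2 and HTSeq on GRCm38 (mm10). Tool versions, annotation and strand setting are not given in the sources used here. The deposited RPKM values were made by the authors per length and library total, and they were used only for levels between genes. Of 54189 lines, 463 repeats were dropped, and Kif11, with a pair of lines, was taken from the line of higher counts. Size factors came from DESeq2 1.42.0 in R 4.3.3 on the 2 libraries of each comparison, and ratios with 95% Clopper-Pearson intervals from Python 3.11.15 with scipy 1.17.1. Calls needed a ratio above 1/0.60, rounded to 2 decimals, or below 0.60, and those set beside all features also a mean normalized count above 50, as in the methods of the study. Alternatives were edgeR 4.0.16 TMM, other scalings, minimums, limits and a pseudocount of 1, and leaving out overlapped genes or Mki67. The rule for names was all 45 genes and, from each list, the highest and lowest ratio above the minimum and genes with a whole interval past a limit. From the marker lists only sums and defining markers are given. A few list genes under this rule are not reported here. Genes and lists were chosen with earlier results of these data known. Gene positions came from GENCODE vM21, promoter windows from RefSeq (GRCm38.p6). The procedure was tested on simulated data. Small RNA-seq was not used.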

Additional observations from a re-analysis of the deposited data

How the results depend on the processing

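No paired analysis was possible because each genotype had 1 library, and for the same reason no replicate could be left out. Ratios near 1 changed side under other scalings, among them the summed Dicer cKO over ScxHt ratio, from 1.027 to 0.982 with total counts, and Knstrn for Dicer cKO over Control, from 0.988 to 1.034 with total counts. No ratio of the 45 genes whose interval lay wholly on 1 side of 1 changed side under the scalings or the pseudocount. Genes called higher above the minimum numbered 17 of 36 for Dicer cKO over Control, 19 of 38 for ScxHt over Control and 4 of 43 for Dicer cKO over ScxHt. With a minimum of 200 fewer genes passed, and they were 7 of 11, 8 of 13 and 0 of 15. Of the same 36, 38 and 43 genes, limits of 2 and 0.5 gave 8, 10 and 1. The whole interval past the limit gave 8, 8 and 1. The shares of all features were not taken for these settings. Genes called lower for ScxHt over Control rose from 0 to 1 (Cdc25c) with no minimum or a minimum of 10. For Dicer cKO over ScxHt, 2 genes were called lower, and this became 4 with scaling by total counts, 1 with a minimum of 200, 0 with limits of 2 and 0.5 and 0 with the whole interval. Scaling by total counts gave summed ratios of 1.78, 1.81 and 0.982 for the 3 comparisons in the same order, and it moved the median log2 ratio of all features for ScxHt over Control from 0.02 to 0.12. After the data were seen, alternatives without genes whose exons overlap another gene and without Mki67 were added. Leaving out the overlapped genes gave 2 genes higher and 1 lower for Dicer cKO over ScxHt, by construction from fewer genes, and leaving out Mki67 gave a summed Dicer cKO over Control ratio of 1.65. Low counts limit single genes, since 15 of the 45 had under 50 counts in the Control library.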
